A study of Mus musculus with 8 samples.

Results

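The respiratory chain and ATP synthase genes of mouse embryonic fibroblasts (MEFs) were followed through a 6 h exposure to interferon-beta (IFN-beta), the antiviral cytokine of the type I family. Members were all gene symbols that start with Nduf, Uqcr or Atp5, or with Cox and a digit from 4 to 8, together with Sdha, Sdhb, Sdhc, Sdhd, Cyc1 and Cycs. Of 24015 gene symbols, 94 matched, and the 86 with at least 15 counts summed over the 4 RNA-seq libraries were kept. There were 2 untreated libraries and 2 from cells that received the recombinant murine cytokine at 100 units/mL, and all 4 came from MEFs of wild type embryos at E12.5, on a C57bl/6 background, at passages 15 to 18. Cells of both groups grew in DMEM with fetal bovine serum and antibiotics. The labels do not say whether the replicates were separate cultures or whether cells were pooled. Each p-value therefore reflects how far these 4 libraries vary, and part of that may be technical. The series also lists chromatin samples of HA-tagged histone H3.3 and inputs, which were not analysed here. The study presents a mouse model for following that histone, and the RNA-seq set shows which transcripts respond to the cytokine.

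Respiration runs through large complexes in the inner mitochondrial membrane. Complex I takes electrons from NADH and complex II from succinate, complex III passes them to cytochrome c, complex IV hands them to oxygen, and ATP synthase uses the resulting proton gradient to make ATP. Apart from complex II, each complex joins nuclear-encoded subunits with a few made from mitochondrial DNA, and only nuclear genes are among the members. In fibroblasts these genes are constantly active, and the factors NRF1, GABP (also called NRF2), YY1 and ERR are known regulators of many of them. Type I interferon acts through a different element, the ISRE.

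Promoters of 4 members are printed because they show which of these elements stand in front of genes whose values are given further on. Cycs encodes cytochrome c. Cox6a1 encodes the common form of a complex IV subunit, and its promoter holds both NRF1 and GABP letters. Ndufs3 encodes a core subunit of complex I and is 1 of 2 members with ISRE letters. Ndufb3 is the subunit gene with the lowest log2 fold change in the data. Each run gives the 250 bases before the start of the gene, 5′ to 3′ on the gene's strand, from RefSeq on build GRCm38.p6, and capitals mark the motif letters listed in the next paragraph.
Cycs: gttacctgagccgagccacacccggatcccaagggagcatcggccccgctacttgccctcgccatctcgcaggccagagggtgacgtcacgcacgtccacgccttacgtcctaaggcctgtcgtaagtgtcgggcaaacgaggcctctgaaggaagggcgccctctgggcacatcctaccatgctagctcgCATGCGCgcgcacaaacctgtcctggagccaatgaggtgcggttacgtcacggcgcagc
Cox6a1: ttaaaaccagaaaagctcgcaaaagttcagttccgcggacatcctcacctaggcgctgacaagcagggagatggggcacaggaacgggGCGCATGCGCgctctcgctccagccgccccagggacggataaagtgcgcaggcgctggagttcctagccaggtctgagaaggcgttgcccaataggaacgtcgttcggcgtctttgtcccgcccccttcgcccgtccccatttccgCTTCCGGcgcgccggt
Ndufs3: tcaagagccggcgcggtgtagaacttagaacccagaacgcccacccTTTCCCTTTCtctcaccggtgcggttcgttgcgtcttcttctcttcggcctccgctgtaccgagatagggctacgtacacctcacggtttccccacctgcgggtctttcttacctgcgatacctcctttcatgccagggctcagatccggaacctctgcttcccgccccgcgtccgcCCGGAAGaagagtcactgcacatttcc
Ndufb3: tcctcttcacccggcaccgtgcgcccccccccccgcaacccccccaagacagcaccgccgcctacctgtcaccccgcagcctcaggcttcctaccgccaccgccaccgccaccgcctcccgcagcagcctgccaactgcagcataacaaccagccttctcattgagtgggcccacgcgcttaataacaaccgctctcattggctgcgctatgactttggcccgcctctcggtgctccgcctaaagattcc
These windows lie at chr6:50566570-50566819 (minus strand) for Cycs, chr5:115348959-115349208 (minus strand) for Cox6a1, chr2:90904722-90904971 (minus strand) for Ndufs3 and chr1:58586147-58586396 (plus strand) for Ndufb3.

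Motifs were searched as exact letters on both strands in those 250 bases. They were CATGCGC for the NRF1 core, CCGGAAG for the ETS core bound by GABP, AAGATGGCG for YY1, TCAAGGTCA for ERR, and TTTC, 2 bases of any kind, TTTC for the ISRE core. A RefSeq promoter was matched to 73 of the 86 members, 70 by symbol and 3 by a synonym. The NRF1 core stood in 12 of the 73 (16.4%), against 3.68% of the 27025 genes of the RefSeq table and 6.77% of the 9619 tested genes with an entry. The ETS core stood in 13 (17.8%), against 7.83% and 16.1%. Atp5l, Cox6a1 and Ndufb6 held both. In Cox6a1 the NRF1 core was read on both strands in overlapping letters that begin 162 and 159 bases before the start, and the ETS core begins 16 bases before it. YY1 letters stood in 2 members (0.71% and 1.42% of the genes compared) and ERR letters in Atp5g3 alone (0.422% and 0.281%). The ISRE core stood in 2 members, Ndufs3 and Ndufa9, against 3.46% of the table and 3.21% of tested genes. Their log2 fold changes were -0.09 and -0.13. Of the interferon-induced genes looked up in the same way, Isg15 held 3 such matches, Ifit1 held 2 and Irf7 held 0. The median log2 fold change was -0.20 for members with the NRF1 core and -0.23 for those without, and -0.21 with the ETS core and -0.26 without. A match describes letters and does not show that a factor binds.

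The libraries held 18528685 and 24817342 gene counts untreated and 18901845 and 20714161 after IFN-beta. The treated libraries carried the response to the cytokine: Isg15, Ifit1, Mx1 and Irf7 were called higher, and Isg15 had 8 and 3 counts untreated and 2047 and 2341 after it. Several library properties differed between the groups. Reads outside annotated genes made up 27.2% and 28.3% of records untreated and 21.9% and 23.7% after IFN-beta. Reads without a unique alignment made up 33.0% and 29.8% against 34.9% and 37.2%, and ribosomal Rn45s took 4.20% and 5.65% of gene counts against 10.2% and 9.06%. The part of these properties in the values of the members was not tested. Fibroblast markers (12 genes) summed to 10290 and 9469 counts per 1e6 gene counts (CPM) untreated and 9924 and 10260 CPM after IFN-beta. Single markers went both ways. S100a4 had 3920 and 2959 CPM untreated and 2393 and 2953 CPM after IFN-beta, and Vim 2341 and 2283 against 2888 and 2851 CPM. Log2 fold changes were below 0 for 5 of the 12 and above 0 for 7, from -0.62 for Pdgfra to 0.54 for Fn1, with 0 called. The untreated pair itself differed in Dcn (40.85 and 19.64 CPM). Leukocyte markers (9 genes, Cd3e at 0) summed to 23.5 and 18.2 against 21.5 and 16.5 CPM. Neural markers (6 genes, Gfap at 0) summed to 91.1 and 133 against 108 and 123 CPM. Most of the neural sum was Nes (60.8 and 111.7 against 82.4 and 100.4 CPM), while Sox10 had 1 count in each library. Epithelial markers (6 genes) stayed between 0.468 and 1.02 CPM, and muscle markers (7 genes, Myod1, Myog, Actc1, Myh3 and Ckm at 0) between 4.52 and 7.66 CPM. Endothelial markers (6 genes, Tie1 at 0) summed to 1.09 and 1.14 CPM untreated and 3.31 and 2.02 CPM after IFN-beta. In bulk RNA, fewer cells of a type and less RNA per cell cannot be told apart.

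One library stood apart for the members. Untreated replicate 1 had the highest CPM of the 4 libraries in 74 of 86 members (86.0%), against 34.8% of all 12128 tested genes. Untreated replicate 2 was the highest for 0 members. The median member was 0.32 log2 units higher in untreated replicate 1 than in untreated replicate 2, while the median over all tested genes was -0.01. Between the IFN-beta libraries the median member was 0.08 log2 units lower in replicate 1 (a median of -0.08). In IFN-beta replicate 1 the value was the lowest of the 4 for 51 members (59.3%, against 29.96% of all tested genes). Untreated replicate 1 was the lowest library for 3 members, but for 34.5% of all tested genes. Over all genes it was thus often an extreme library, in either direction. The members as a whole summed to 12350 and 10310 CPM untreated and to 9700 and 10480 CPM after IFN-beta, so the groups overlapped. The members took 1.28% and 1.10% of gene counts untreated and 0.916% and 1.00% after treatment.

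**Figure D1:**
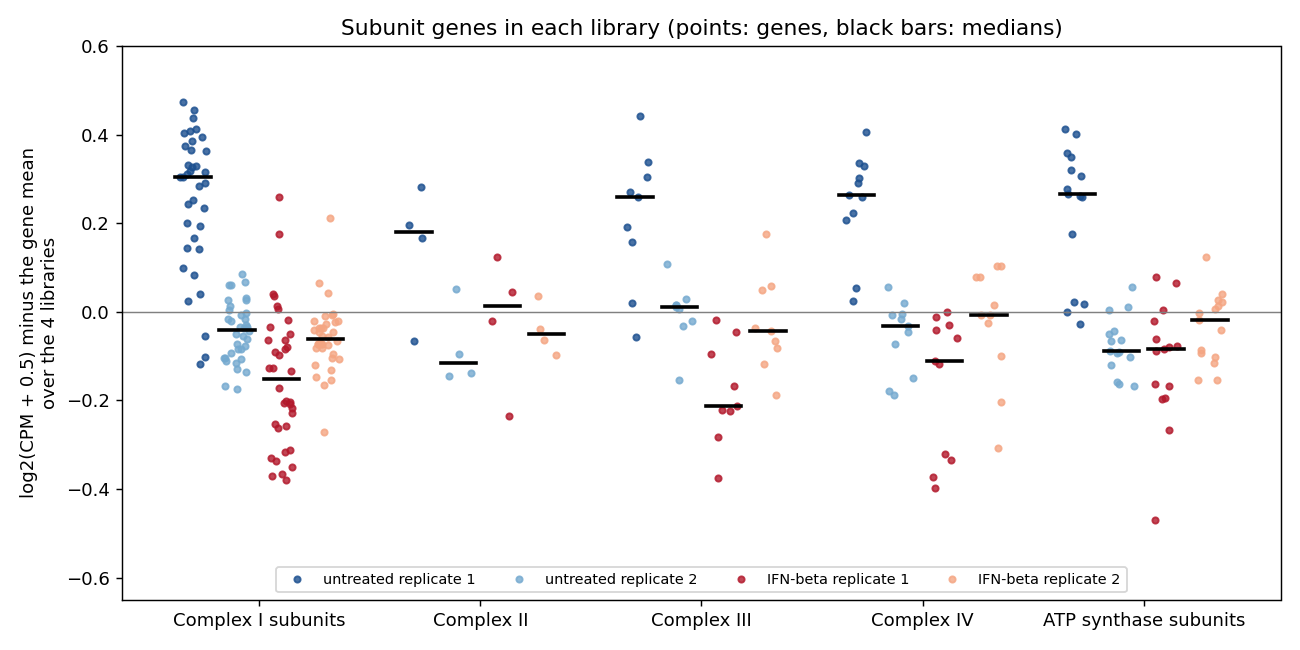
Level of each subunit gene in each library, as log2(CPM + 0.5) minus the mean of that gene over the 4 libraries (y axis), by complex (x axis). Each point is a gene and each black bar a median; in complex I the median is 0.30 in untreated replicate 1, -0.04 in untreated replicate 2, -0.15 in IFN-beta replicate 1 and -0.06 in IFN-beta replicate 2.

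No respiratory chain or ATP synthase gene passed the test after IFN-beta, although most values were below 0. All 86 members had enough counts to be tested, and 0 were called higher and 0 lower (edgeR, quasi-likelihood; a call needs a p below 0.05 after Benjamini-Hochberg adjustment). Over all 12128 tested genes, 4.73% were called higher and 0.495% lower. DESeq2 and limma-voom also called 0 members. An unadjusted p under 0.05 was found for 17 members (19.8%), all of them lower in value, against 18.2% of all tested genes in either direction. Log2 fold changes were below 0 for 73 members (84.9%), against 52.6% of all tested genes, and their median was -0.22, against -0.02. They ran from -0.87 for Atp5s to 0.32 for Ndufs5, with 26 members below -0.3 and 21 within 0.1 of 0. Standard errors (SE) of these values had a median of 0.15. In 37 members (43.0%) both IFN-beta libraries lay below both untreated ones, against 26.8% of all tested genes, and in 6 members both lay above, against 23.9%.

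The size of that shift depended on which untreated library was used. Without untreated replicate 1 the median of the members was -0.02, 46 of 86 were below 0, and 0 were called. Without untreated replicate 2 the median was -0.38, 78 were below 0, and 49 were called lower. Those 49 were 57% of the members, and in the same fit 1728 of 12336 tested genes (14%) were called lower. With 1 untreated library left, the spread in that fit comes from the IFN-beta pair alone. Leaving out either IFN-beta library kept the count of members called at 0, with medians of -0.18 and -0.27.

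**Figure D2:**
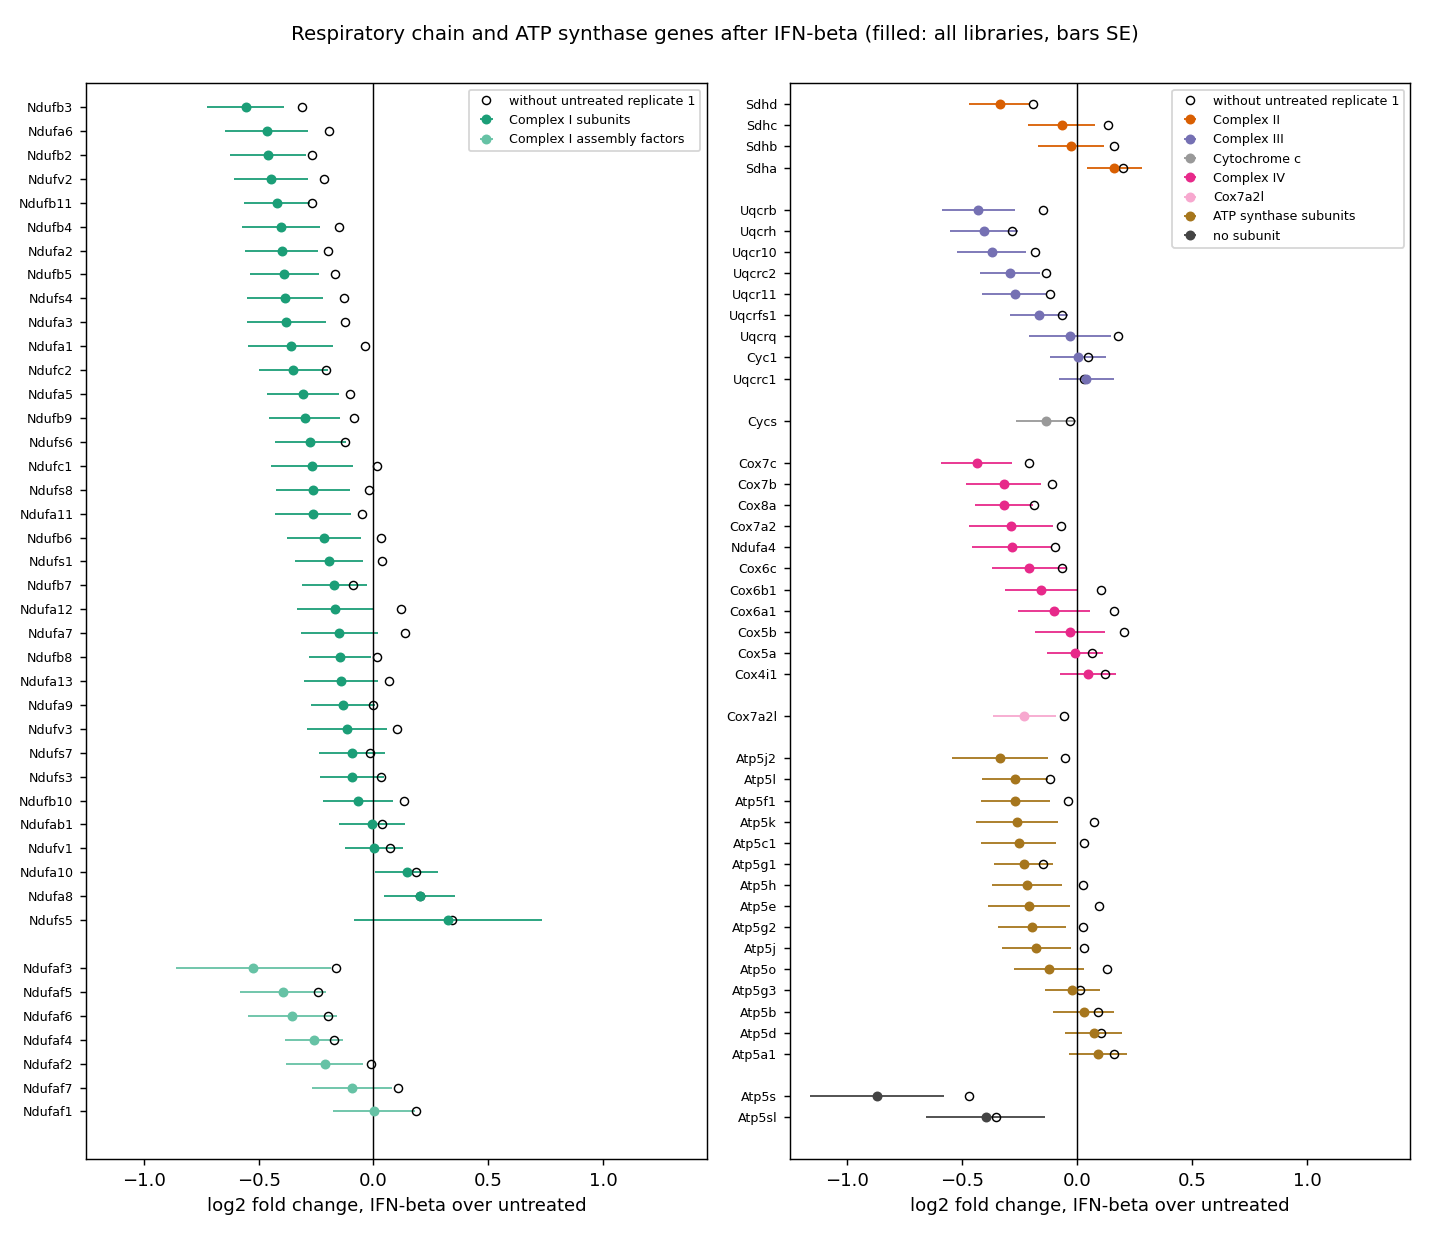
Log2 fold change of IFN-beta over untreated (x axis) for 85 of the 86 members, grouped by complex and sorted within it. Filled points with SE bars use all 4 libraries and open points leave out untreated replicate 1; open points lie to the right of most filled ones, and the medians over all 86 are -0.22 and -0.02.

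Complex I, the entry point for electrons from NADH, had 36 subunit genes among the members, and none passed the test (10 at an unadjusted p under 0.05). Their summed level was 2721 and 2162 CPM untreated and 1974 and 2140 CPM after IFN-beta. Both treated sums lay below both untreated ones, that of IFN-beta replicate 2 by a narrow margin that DESeq2 size factors removed (2144 against 2141 CPM in untreated replicate 2). The median log2 fold change was -0.24, or -0.02 without untreated replicate 1. In 18 of 36 genes (50.0%) both IFN-beta libraries lay below both untreated ones, against 26.8% of all tested genes. An unadjusted p under 0.05 was found for 18.2% of all tested genes. Both shares are the background of such counts in the paragraphs that follow.

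Ndufb3, an accessory subunit of the membrane arm, had the lowest value of any subunit. Its level was 44.2 and 33.0 CPM untreated and 26.3 and 26.15 CPM after IFN-beta. Both treated libraries lay below both untreated ones, and the untreated pair differed more than the treated pair. Its log2 fold change was -0.56 ± 0.17 SE (edgeR adjusted p = 0.106). Leaving out untreated replicate 1 gave -0.31, leaving out untreated replicate 2 gave -0.75, and adjusted p-values over the alternatives ran from 2.1e-06 to 0.482. Ndufa6, a small subunit at the base of the ubiquinone module, was at 69.9 and 50.8 CPM untreated and 39.0 and 48.4 CPM after IFN-beta (-0.46 ± 0.18 SE, adjusted p = 0.207). Its treated values lay below the untreated ones, by a narrow margin for IFN-beta replicate 2.

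The NADH-oxidising module at the tip of the matrix arm held genes with unlike values. Ndufv2, an iron-sulfur core subunit, was at 212 and 162 CPM untreated and 123 and 151 CPM after IFN-beta (-0.45 ± 0.16 SE, adjusted p = 0.179). Its partner Ndufv1, which binds NADH and the flavin, was at 63.3 and 59.7 CPM untreated and 62.1 and 61.2 CPM after IFN-beta (0.00 ± 0.13 SE, adjusted p = 0.992). The treated values of Ndufv1 lay between the untreated ones, whereas those of Ndufv2 lay below them. Ndufs1, the large iron-sulfur subunit of this module, was at 175 and 134 CPM untreated and 135 and 134 CPM after IFN-beta (-0.19 ± 0.15 SE, adjusted p = 0.527). Only untreated replicate 1 stood out for that gene. Over the module's 8 genes the median was -0.23, and over the 8 genes of the ubiquinone-reducing module it was -0.14. In the latter, the core genes Ndufs3, Ndufs7 and Ndufs8 were at -0.09, -0.09 and -0.26.

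The 20 genes of the membrane arm and of other accessory subunits had a median of -0.27. In 11 of them (55.0%, against 26.8% of all tested genes) both treated libraries lay below both untreated ones. Ndufb2 (-0.46), Ndufb11 (-0.42), Ndufb4 (-0.40) and Ndufb5 (-0.39) followed Ndufb3. At the other end stood Ndufa10 at 0.14 and Ndufa8 at 0.20, with both treated libraries above both untreated ones. Ndufs5 had the highest value (0.32 ± 0.41 SE, adjusted p = 0.725), but with 13, 18, 18 and 14 counts it was barely covered and its error exceeds the value. A split of complex I into its 7 nuclear core subunits and 29 accessory ones was made after the values were seen. Medians were -0.09 and -0.27 with all libraries, and 0.03 and -0.05 without untreated replicate 1. The 7 assembly factors named Ndufaf, which help to build the complex and are not part of it, had a median of -0.26 and 0 calls (0 at an unadjusted p under 0.05). Their values ran from -0.52 for Ndufaf3, with 25 to 49 counts a library, to 0.00 for Ndufaf1.

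Complex II, which doubles as an enzyme of the citric acid cycle, had a median of -0.05 over 4 genes (0 called, 1 at an unadjusted p under 0.05). Leaving out untreated replicate 1 moved that median to 0.15 and leaving out untreated replicate 2 moved it to -0.20, so its sign depended on the library used. Sdha, the flavoprotein that oxidises succinate, was at 125 and 122 CPM untreated and 142 and 134 CPM after IFN-beta. Both treated libraries lay above both untreated ones (0.16 ± 0.12 SE, adjusted p = 0.520). Sdhb, the iron-sulfur subunit, was at 99.4 and 80.01 CPM untreated and 91.3 and 84.7 CPM after IFN-beta, so that the treated values lay between the untreated ones (-0.03 ± 0.14 SE). Of the membrane anchors, Sdhc overlapped between groups, with 74.9 and 59.3 against 64.5 and 63.6 CPM (-0.07 ± 0.15 SE). Sdhd did not overlap, with 197 and 168 CPM untreated and 138 and 151 CPM after IFN-beta (-0.34 ± 0.13 SE, adjusted p = 0.213). The 4 genes thus spanned 0.16 to -0.34 within 1 complex. The sum was 496 and 430 CPM untreated and 436 and 434 CPM after treatment, and the groups overlapped.

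Complex III, which passes electrons from ubiquinol to cytochrome c, had a median of -0.27 over 9 genes, or -0.12 without untreated replicate 1. None of the 9 passed the test, and 3 had an unadjusted p under 0.05. In 6 of them (66.7%, against 26.8% of all tested genes) both treated libraries lay below both untreated ones. The sum went from 1291 and 1100 CPM untreated to 952 and 1048 CPM after IFN-beta, with no overlap between the groups. Uqcrb, a small subunit near the ubiquinone site, was at 276 and 199 CPM untreated and 174 and 178 CPM after IFN-beta (-0.43 ± 0.16 SE, adjusted p = 0.190). Uqcrh, the acidic hinge protein, was at 261 and 228 CPM untreated and 163 and 206 CPM after IFN-beta (-0.41 ± 0.15 SE, adjusted p = 0.180). For both genes the treated libraries were the lower ones. Uqcrc1, a large core protein, was at 114 and 120 CPM untreated and 117 and 123 CPM after IFN-beta (0.04 ± 0.12 SE, adjusted p = 0.896). Its core partner Uqcrc2 was at -0.29 ± 0.13 SE and the Rieske iron-sulfur gene Uqcrfs1 at -0.17 ± 0.13 SE. Cyc1, the haem subunit that docks cytochrome c, was at 114 and 111 CPM untreated and 109 and 117 CPM after IFN-beta, with overlapping groups (0.00 ± 0.12 SE, adjusted p = 0.992).

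Cycs, the gene of cytochrome c itself, was at 506 and 452 CPM untreated and 415 and 456 CPM after IFN-beta. IFN-beta replicate 2 lay between the untreated libraries. The log2 fold change was -0.14 ± 0.13 SE (adjusted p = 0.623), and -0.03 without untreated replicate 1.

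Complex IV, the oxidase at the end of the chain, had 11 subunit genes among the members when Ndufa4, a subunit of this complex in spite of its symbol, is counted with it. None passed the test and 2 had an unadjusted p under 0.05, with a median of -0.21 (-0.07 without untreated replicate 1 and also -0.07 without IFN-beta replicate 1). The sum was 2387 and 1952 CPM untreated and 1729 and 2022 CPM after IFN-beta, so the groups overlapped. Cox7c, a small subunit, was at 123 and 94.2 CPM untreated and 85.5 and 75.0 CPM after IFN-beta, with no overlap (-0.44 ± 0.16 SE, adjusted p = 0.171). Cox8a, another small subunit, was at 195 and 169 CPM untreated and 151 and 141 CPM after IFN-beta, also with no overlap (-0.32 ± 0.13 SE, adjusted p = 0.226). These were the 2 genes of the complex whose groups did not overlap (18.18%, against 26.8% of all tested genes with both treated libraries lower). Cox7b, with 410 and 322 against 258 and 329 CPM, had IFN-beta replicate 2 above untreated replicate 2 (-0.32 ± 0.16 SE, adjusted p = 0.338).

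Ndufa4 had 334 and 269 CPM untreated and 209 and 286 CPM after IFN-beta, and Cox6c 335 and 286 against 229 and 308 CPM. In both, IFN-beta replicate 1 was the lowest library and IFN-beta replicate 2 lay between the untreated ones (-0.28 ± 0.17 and -0.21 ± 0.16 SE). Cox4i1, which contacts the catalytic core and is the point at which ATP can restrain the enzyme, was at 235 and 219 CPM untreated and 226 and 244 CPM after IFN-beta (0.05 ± 0.12 SE, adjusted p = 0.872). Cox5a was at -0.01 and Cox5b at -0.03. Cox7a2l is known as a factor of supercomplexes of complexes III and IV. Whether its product has that role in cells of this strain was not examined. The gene was at 178 and 146 CPM untreated and 133 and 143 CPM after IFN-beta (-0.23 ± 0.14 SE, adjusted p = 0.410).

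Tissue-restricted forms of complex IV subunits were close to absent from these fibroblasts in both groups. Cox6a2 and Cox8b, the forms of heart and skeletal muscle, had 0 counts in all 4 libraries, and so did Cox6b2, Cox7b2 and Cox8c, known from testis. A count of 0 over the pooled libraries allows a level of up to 0.0360 CPM, with only counting error considered. Cox4i2, the lung form, had 1 count in all, the muscle form Cox7a1 had 4, and Ndufa4l2, the hypoxia-linked paralogue of Ndufa4, had 3. The common forms carried the expression: Cox6a1 was at 133 and 98.1 CPM untreated and 107 and 109 CPM after IFN-beta (-0.10 ± 0.16 SE), and Cox6b1 at 143 and 105 against 113 and 109 CPM (-0.16 ± 0.16 SE). Both had treated values between the untreated ones. Cox7a2 was at 285 and 222 CPM untreated and 172 and 244 CPM after IFN-beta (-0.29 ± 0.18 SE), with overlapping groups. These 8 scarce symbols fell under the minimum of 15 counts and are not among the 86.

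**Figure D3:**
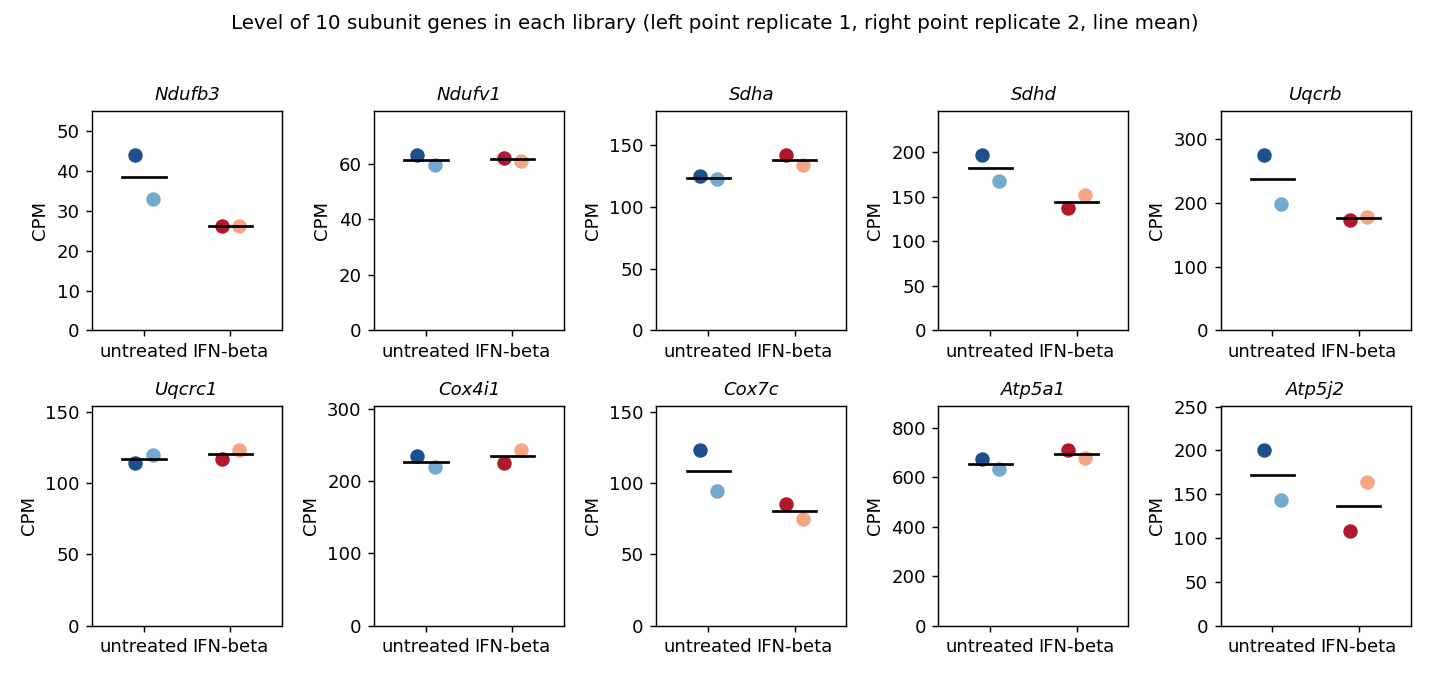
Level in CPM (y axis, from 0) of 10 subunit genes in each library, untreated and after IFN-beta (x axis), with the left point of each pair for replicate 1, the right one for replicate 2 and a line for the mean of the 2. Ndufb3, Sdhd, Uqcrb and Cox7c show both treated libraries below both untreated ones, while Ndufv1 and Cox4i1 overlap, and Sdha and Atp5a1 lie higher after treatment (Atp5a1 is at -0.05 when scaled to total library size).

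ATP synthase, the rotary enzyme that makes ATP, had 15 subunit genes among the members. None passed the test and 0 had an unadjusted p under 0.05, with a median of -0.21, or 0.03 without untreated replicate 1. The sum was 4578 and 3912 CPM untreated and 3918 and 4080 CPM after IFN-beta, and the groups overlapped. In the catalytic head and central stalk (5 genes) the median was 0.03. Atp5a1, the alpha subunit, was at 672 and 632 CPM untreated and 711 and 678 CPM after IFN-beta, the treated values lying above the untreated ones (0.09 ± 0.13 SE, adjusted p = 0.753; -0.05 when scaled to total library size). Atp5b, the catalytic beta subunit, was at 1370 and 1302 CPM untreated and 1352 and 1373 CPM after IFN-beta (0.03 ± 0.13 SE, adjusted p = 0.937). Neither log2 fold change exceeded its error. The gamma subunit gene Atp5c1 was at -0.26 and the epsilon subunit gene Atp5e at -0.21, both highest in untreated replicate 1 and at 0.03 and 0.09 without it.

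In the peripheral stalk, which holds the head still, the 4 genes Atp5f1, Atp5h, Atp5j and Atp5o had a median of -0.20, and only Atp5f1 did not overlap between groups (495 and 380 against 354 and 372 CPM). Of the 6 membrane genes, Atp5j2, a subunit of the membrane part, had the lowest value and the widest spread. It was at 201 and 144 CPM untreated and 109 and 164 CPM after IFN-beta (-0.34 ± 0.21 SE, adjusted p = 0.433), and the groups overlapped. Atp5l, a subunit found where the enzyme forms dimers, was at 296 and 249 CPM untreated and 205 and 247 CPM after IFN-beta (-0.27 ± 0.14 SE, adjusted p = 0.359). IFN-beta replicate 2 lay just below untreated replicate 2.

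The rotor ring of ATP synthase is built from a single mature protein that Atp5g1, Atp5g2 and Atp5g3 all encode. Atp5g1 was at 79.5 and 73.1 CPM untreated and 66.6 and 63.2 CPM after IFN-beta (-0.23 ± 0.13 SE, adjusted p = 0.375), with no overlap. Atp5g2 was at 204 and 158 against 150 and 166 CPM (-0.19 ± 0.15 SE), and Atp5g3 at 128 and 126 against 121 and 129 CPM (-0.02 ± 0.12 SE). The last 2 overlapped. The difference between the 3 genes was not tested.

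Atp5s and Atp5sl match the symbol rule but are named Dmac2l and Dmac2 in RefSeq and are not counted as subunits here. Atp5s had the lowest log2 fold change of all members (-0.87 ± 0.29 SE, edgeR adjusted p = 0.147). Its level was 7.28 and 4.51 CPM untreated and 2.69 and 3.68 CPM after IFN-beta, from 140, 119, 48 and 73 counts, with no overlap. Leaving out untreated replicate 1 gave -0.47, and leaving out untreated replicate 2 gave -1.18. Atp5sl was at 3.17 and 3.07 CPM untreated and 2.52 and 2.22 CPM after IFN-beta (-0.40 ± 0.26 SE, adjusted p = 0.456).

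Around the subunits, a pair of complex IV assembly genes rose. Cox18, which inserts a mitochondrially made subunit of complex IV into the membrane, rose from 9.88 and 9.59 CPM to 22.7 and 21.8 CPM (1.19 log2 units, edgeR adjusted p = 0.00127, higher in 2 of 2 treated libraries than in both untreated ones). Cox15, which makes the haem A of that complex, rose from 12.99 and 18.2 CPM to 31.4 and 30.8 CPM (0.99 log2 units, adjusted p = 0.0097). Both calls held in all 13 alternatives, with adjusted p-values up to 0.0054 and 0.0368. They were the 2 calls among 37 tested genes of assembly and related functions outside the symbol rule, with 0 lower calls and a median of -0.17. Not all of these are assembly factors. The list also holds the ATP synthase subunit gene Usmg5, the inhibitor gene Atpif1, and genes of mitochondrial RNA or translation such as Lrpprc and Taco1. Over all tested genes 4.73% were called higher and 0.495% lower, so 2 of 37 is near the general share. In 18 of the 37 (48.65%, against 26.8% of all tested genes) both treated libraries lay below both untreated ones. In 9 of them both lay above, against 23.9% of all tested genes. Neither gene starts with a prefix that the rule for the members covers. A RefSeq promoter entry was matched for Cox15, and its window held none of the 5 motifs.

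Other parts of energy metabolism gave few calls. Over all tested genes 4.73% were called higher and 0.495% lower, so lists of this size hold few calls at those shares. An unadjusted p under 0.05 was found for 18.2% of all tested genes. Of 22 tested glycolysis and pyruvate genes, Hk1, a hexokinase that docks on mitochondria, rose from 35.0 and 44.4 CPM to 69.9 and 66.2 CPM (0.77 log2 units, edgeR adjusted p = 0.0130). Hk2, another hexokinase gene, had a similar value without a call (0.79 log2 units, adjusted p = 0.0659). It was at 30.35 and 49.1 CPM untreated and 74.9 and 62.7 CPM after IFN-beta. Pdk4, a kinase that holds pyruvate dehydrogenase back, fell from 9.77 and 10.7 CPM to 5.94 and 5.84 CPM (-0.80 log2 units, adjusted p = 0.0373). The Pdk4 call was lost with DESeq2 (adjusted p = 0.0558) and without IFN-beta replicate 1 (0.283) or 2 (0.243). There were 0 calls among 14 citric acid cycle genes (median 0.02, 2 at an unadjusted p under 0.05). A list of 19 genes around electron entry also held 0 calls (0.02, 1 such gene). It joined entry enzymes such as Etfdh with ubiquinone synthesis genes (Coq and Pdss symbols) and with Immt, Chchd3, Chchd4 and Aifm1. There were also 0 among 7 genes of carriers, porins and the transhydrogenase Nnt (0.05, 0 such genes) and 14 hypoxia targets (-0.04, 4 such genes). The count was likewise 0 among 10 genes of mitochondrial DNA transcription and upkeep (-0.13, 2 such genes) and 11 regulators of respiration genes (0.00, 1 such gene). Symbols of the mitochondrially encoded subunits matched no line of the tables, and those subunits were not analysed here. Among the cell type markers the endothelial cadherin gene Cdh5 rose, from 2 and 6 counts to 24 and 19 (2.68 log2 units, edgeR adjusted p = 0.0140). Without IFN-beta replicate 1 the value was 2.43, and the call was not kept in every alternative. The other endothelial markers had no common direction. Kdr had 10 and 18 counts untreated and 32 and 20 after IFN-beta. Tek had 5 and 2 against 0 and 0, Pecam1 1 and 2 against 0 and 1, and Vwf 3 and 2 against 3 and 0.

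Ribosomal protein genes, which are likewise constantly active, were set beside the members. Of 84 tested cytosolic ribosomal protein genes 0 were called (9 at an unadjusted p under 0.05), 72 were below 0 and the median was -0.23, or -0.05 without untreated replicate 1. Untreated replicate 1 was the highest library in 74 of the 84. Of 77 mitochondrial ribosomal protein genes 0 were called (10 at an unadjusted p under 0.05), 53 were below 0 and the median was -0.09, or 0.02 without that library, which was the highest in 51. The difference between these groups was not tested.

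**Figure D4:**
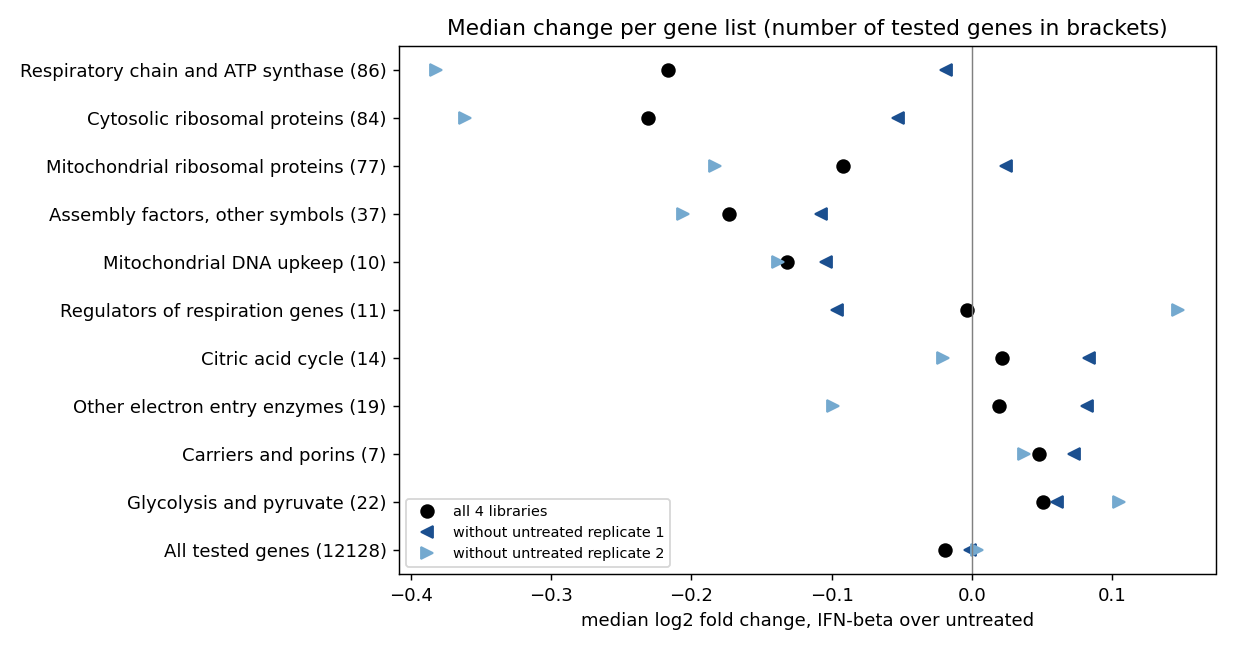
Median log2 fold change of IFN-beta over untreated (x axis) for each gene list (y axis, number of tested genes in brackets), with all 4 libraries (circles) and without untreated replicate 1 or 2 (triangles). The members run from -0.38 to -0.02 with the untreated library used, the cytosolic ribosomal proteins from -0.36 to -0.05, and the glycolysis list from 0.05 to 0.11. Some labels are narrower than their lists. The assembly factors include Usmg5 and Atpif1, the electron entry enzymes include ubiquinone synthesis genes, and the carriers and porins include Nnt.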

How the data were processed

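RNA of 4 libraries was measured, 2 untreated and 2 after IFN-beta, with groups taken from the sample labels. The authors deposited 1 table of raw read counts per library, not normalized or pooled. TopHat2 2.0.13 and HTSeq 0.7.2 with build mm9 were used, per the submitters' processing notes. The gene annotation and the strand setting are not given in the sources used here, so reads of overlapping genes on opposite strands, and of near-identical copies, are uncertain. The 5 summary lines that name no gene were left out. Records assigned to a gene made up 38.7% to 42.7% of the total.

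The main test was that of edgeR 4.0.16, run under R 4.3.3 over the whole table (quasi-likelihood F test, TMM, group as the only term, minimum count 10, minimum total count 15) with Benjamini-Hochberg adjustment over 12128 genes. To obtain the SE, the log2 fold change was divided by the root of the F value, sign dropped. CPM used TMM-adjusted library sizes, and per-library deviations as log2(CPM + 0.5). No transcript lengths were used, so the levels of different genes are not on a common scale. Naming by highest level and the summed CPM used CPM without correction for length. An exact permutation test of 2 against 2 cannot go below p = 0.333 (two-sided) and was not run. Replicate libraries were not duplicates of each other (chi-square per gene 34.2 untreated and 11.98 after IFN-beta). Alternatives were other scalings and filters, DESeq2 1.42.0, limma-voom (limma 3.58.1), a replicate block, each library left out, and a table without Rn45s, Lars2 and Mir6236. Simulated data served to check the fit.

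Members and lists were chosen with earlier results of these data known. Named with values in every library are, per complex, the 2 lowest and the highest log2 fold changes and the 2 highest levels, then complex II, Cycs, Cyc1, isoform pairs and called genes of the other lists. Ndufv1, Atp5f1, Hk2, the single fibroblast and neural markers, the endothelial markers beside Cdh5 and the genes given by log2 fold change alone were added after their values were seen. Some single genes are not reported here, although the counts and medians include them.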

Additional observations from a re-analysis of the deposited data

How the results depend on the processing

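The count of 0 members called held in DESeq2, limma-voom, DESeq2 size factors, upper quartile scaling, the stricter filter and the table without 3 abundant transcripts. Members called lower numbered 1 with total library size (Ndufb3), 5 with no count filter, and 0 to 49 as each library was left out. The 49 came without untreated replicate 2. Over all tested genes, higher calls numbered 863 with no count filter and 470 to 1885 with a library left out. Lower calls numbered 350 with total library size, 128 with upper quartile scaling, 381 with no count filter, 103 with DESeq2 and 24 to 1728 with a library left out. The causes were not tested. Summed levels of complexes II, IV and ATP synthase overlapped between groups with TMM and with DESeq2 size factors but not with total library size, and those of II and IV not with upper quartile scaling. Total library size moved the median of all tested genes from -0.02 to -0.16 and that of the members to -0.36.

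With a library left out, median log2 fold changes ran from -0.38 to -0.0183 for all members, -0.40 to -0.0183 for complex I, -0.20 to 0.15 for complex II, -0.39 to -0.12 for complex III, -0.36 to -0.07 for complex IV and -0.37 to 0.0282 for ATP synthase. The upper ends came without untreated replicate 1. In such fits 33 of the 86 members changed sign at least once, 27 of them without untreated replicate 1. The 10 of these that the naming rule covers ranged from -0.38 to 0.0373 for Ndufs1, -0.23 to 0.13 for Sdhc, -0.17 to 0.16 for Sdhb, -0.31 to 0.16 for Cox6a1, -0.36 to 0.10 for Cox6b1, -0.37 to 0.0253 for Atp5g2, -0.0706 to 0.032 for Atp5g3, -0.0042 to 0.12 for Cox4i1, -0.0078 to 0.0888 for Atp5b and -0.0426 to 0.0525 for Cyc1. With total library size and upper quartile scaling, Uqcrc1 was at -0.10 and -0.0312, Cox4i1 at -0.0936 and -0.0232, Atp5b at -0.115 and -0.0445, and Cyc1 at -0.14 and -0.0688. Atp5a1 was at -0.0521 with total library size.

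With the replicate number as a block, 1 member was called lower (Atp5s, adjusted p = 0.0451) and 155 of all tested genes were called lower. The labels do not tie a number to a culture, so the numbers were not taken as pairs. Deviations of same-numbered libraries had a correlation of -0.088 over all tested genes and -0.278 over the members. With 2 libraries per group such a correlation cannot show whether libraries were paired.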
